A study of Mus musculus with 6 samples.

Results

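The killer lectin-like receptors are C-type lectin proteins on the surface of natural killer (NK) cells, innate lymphoid cells (ILCs) and some T cells. The 10 receptor genes described here, Klra4, Klra7, Klra8, Klra9, Klrb1c, Klrc1, Klrc2, Klrd1, Klrk1 and Klrg1, were taken by name, and all 10 were among the 16623 genes measured. A further 15 genes with a Klr symbol were in the same data. Livers of 3 wild-type and 3 SIRT7-/- mice, which lack the histone deacetylase SIRT7, were dissociated, and 1 single-cell RNA library was made from each on the 10x Genomics platform. All mice were 5 to 6 months old and were fed chow. SIRT7 was absent from the whole animal, and each library mixed hepatocytes with nonparenchymal cells. The expression level is the mean over the cells of a mouse of counts per 10000 unique molecular identifiers (CP10K), and a unique molecular identifier (UMI) marks 1 captured RNA molecule.

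These receptors tell a lymphocyte whether a neighboring cell carries the normal set of MHC class I molecules or signs of stress. In mice, the Ly49 receptors encoded by the Klra genes bind MHC class I. Some of them inhibit through a tail motif that recruits phosphatases, and others activate through the adaptor DAP12, encoded by Tyrobp. CD94, encoded by Klrd1, pairs with an inhibitory partner, NKG2A, encoded by Klrc1, or with an activating partner, NKG2C, encoded by Klrc2. NKG2D, encoded by Klrk1, is an activating receptor for stress-induced ligands and signals through the adaptor encoded by Hcst. The liver is known for its many NK cells and resident innate lymphoid cells.

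All 10 genes lie on chromosome 6 (GRCm38 annotation). From Klrb1c to Klra7, 9 of them fall within 1455 kb, in the region known as the NK gene complex, and Klrg1 lies apart at chr6:122270596-122282882. The 4 Ly49 genes among the 10 occupy 189.6 kb, from Klra4 at its start to Klra7 at its end, and are close copies of each other. The 250 bases before the annotated start of each, credited to RefSeq (GRCm38.p6) and all on the minus strand, are shown because of this likeness and because these genes are hard to tell apart. The Klra4 window is chr6:130067272-130067521, that of Klra7 chr6:130233323-130233572, that of Klra8 chr6:130129899-130130148 and that of Klra9 chr6:130193113-130193362. Capitals mark a run of 11 bases, TTTCCTCTTTT, that all 4 share. They are written from 5′ to 3′.
Klra4: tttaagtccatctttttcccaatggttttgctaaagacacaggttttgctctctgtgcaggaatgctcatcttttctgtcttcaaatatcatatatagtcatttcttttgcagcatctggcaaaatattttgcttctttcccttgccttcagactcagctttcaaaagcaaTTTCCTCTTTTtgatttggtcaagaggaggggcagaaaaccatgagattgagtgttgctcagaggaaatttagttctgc
Klra7: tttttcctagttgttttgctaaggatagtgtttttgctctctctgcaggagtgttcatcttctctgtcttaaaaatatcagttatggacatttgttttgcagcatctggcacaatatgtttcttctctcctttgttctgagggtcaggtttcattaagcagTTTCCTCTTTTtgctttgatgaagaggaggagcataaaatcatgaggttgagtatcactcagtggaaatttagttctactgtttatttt
Klra8: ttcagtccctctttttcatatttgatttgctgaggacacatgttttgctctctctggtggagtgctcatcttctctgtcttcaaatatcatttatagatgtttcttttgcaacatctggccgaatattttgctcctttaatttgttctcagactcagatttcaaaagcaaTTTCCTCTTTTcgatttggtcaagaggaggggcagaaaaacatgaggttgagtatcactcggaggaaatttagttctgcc
Klra9: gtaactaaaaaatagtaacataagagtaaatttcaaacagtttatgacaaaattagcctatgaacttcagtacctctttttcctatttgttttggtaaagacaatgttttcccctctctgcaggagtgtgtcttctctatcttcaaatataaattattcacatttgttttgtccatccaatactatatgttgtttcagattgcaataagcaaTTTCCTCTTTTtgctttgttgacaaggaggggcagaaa

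The Klra4 and Klra8 windows were 85.1% identical over 249 aligned positions, the highest of the 6 pairs, and Klra4 and Klra9 were 71.3% identical, the lowest. The shared run ends 68 bases before the start of Klra4, 78 before Klra7, 69 before Klra8 and 27 before Klra9. It occurred in 27 of 32851 windows of the same length, or 0.0822%, read on the strand of each gene, and in the windows of 8 of 11 Klra genes. The letters TGTGGT, the core of the motif of RUNX factors, were searched on both strands of the windows of 8 of the 10 genes. They occurred in those of Klrb1c, Klrc1, Klrc2 and Klrk1, and in none of the 4 Ly49 windows. Of all windows, 14.0% held these letters on either strand. The likeness extends to the part of the transcripts that a 3′ library reads. Of the words of 60 bases in the last 500 bases of the Klra9 transcripts, 32.3% also occurred in other genes, namely Klra11-ps, Klra3, Klra10 and Klra8. The share was 17.3% for Klra7, 16.2% for Klrb1c, 12.7% for Klrc1, 9.1% for Klrc2, 6.35% for Klra8 and 2.49% for Klra4. Klrd1, Klrk1 and Klrg1 shared none. The counts of Klra9, Klra7, Klrb1c and Klrc1 are therefore less certain than those of the last 3 genes.

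Sirt7 itself was lower in each SIRT7-/- mouse, at 0.1, 0.0814 and 0.139 CP10K over all cells, than in the wild-type mice, at 0.718, 0.512 and 0.546 CP10K. The libraries held 933 to 1243 wild-type cells and 552 to 5609 SIRT7-/- cells, with medians of 1630 to 3875 UMIs per cell. Between libraries, 13 cell barcodes recurred, in 26 cells. In a comparison of 3 with 3 mice, the smallest p an exact two-sided permutation test can give is 0.1. The number of mice and the few UMIs per cell set the precision here. Intervals on shares of cells are exact binomial intervals and cover counting error only.

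Cells were clustered without any Klr gene. Of 1969 cells in the lymphocyte cluster, 1093 formed a T-like class, with a Cd3d UMI in 71.8% of cells. Its leading genes were headed by Gm12840, Mmp9 and Ccr9 and included Tcrg-C2, Tcrg-C1, Cd3g and Cd3e. A group of 125 cells was NK-like, led by Gzma, S1pr5, Eomes and Prf1, and had an Ncr1 UMI in 84.8% of cells and a Cd3d UMI in 12.8%. A group of 247 cells was ILC-like, led by Cd200r1 and also by Tcrg-C4. Its label was met in part, since 2 of its 10 leading genes, Cd200r1 and Inpp4b, were ILC markers and 0 were markers on the T list, but its best score was for the T markers. The 16 ILC markers summed to 26.1 CP10K in these cells, against 10.6 in NK-like and 34.8 in T-like cells. The 18 T markers summed to 22.3 CP10K here, against 14.8 in NK-like and 61.2 in T-like cells, and the 12 NK markers to 86.4 CP10K, against 188.9 and 9.19. The T-like cluster itself scored best for the ILC markers, several of which T cells also express, and 4 of its 10 leading genes were T markers. In the ILC-like cells, an Ncr1 UMI was found in 72.5% and an Eomes UMI in 2.02%, and S1pr5, Il1rl1 and Areg were at 0. A Cd3d UMI was found in 19.8% and a Trbc2 UMI in 49.0% of the ILC-like cells, so that T cells among them were not separated out. A further 268 cells led by Mki67 and 236 led by H2-Ab1 were not used in the comparisons. The leading genes of the group led by H2-Ab1 also included Cd74, Spi1, Lyz2 and Cd209a, a dendritic marker. This group is therefore not taken as lymphocytes alone.

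Each of the 10 receptor genes had a higher mean in NK-like than in T-like cells, and 9 of them, with the exception of Klrg1, had a higher mean in ILC-like than in T-like cells. These levels are a description, because the classes were made from the same cells. Klrd1, the CD94 gene, was the highest of the 10 in each of the 3 classes, with 19.3 ± 6.11 CP10K in NK-like cells (SD, n = 5 mice with at least 5 cells), 18.8 ± 6.64 CP10K in ILC-like cells (n = 6) and 3.12 ± 0.491 CP10K in T-like cells (n = 6). The NK-like and ILC-like levels of Klrd1 did not differ beyond their spread. Klrk1, the NKG2D gene, was 4.78 ± 1.67, 10.5 ± 3.78 and 1.72 ± 0.438 CP10K in the same order, with the ILC-like level above the NK-like level by more than either SD. For Klrb1c, the gene of the NK cell marker recognized in C57BL/6 mice, the levels were 6.20 ± 4.04, 5.29 ± 2.05 and 1.22 ± 0.911 CP10K.

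The CD94 partners are given as means over the mice of both genotypes. Klrc2 was at 4.41 ± 1.31 CP10K in NK-like, 4.73 ± 1.01 in ILC-like and 1.04 ± 0.438 in T-like cells. Klrc1 was at 4.51 ± 2.55, 2.69 ± 1.99 and 0.935 ± 0.595 CP10K. For both, the NK-like and ILC-like means did not differ beyond the spread between mice. For Klrc1 these means join genotypes that went opposite ways. Its level was higher in NK-like than in ILC-like cells in each wild-type mouse and lower in each SIRT7-/- mouse. These values, given below by mouse, rest on few cells in most mice and were not tested.

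The Ly49 genes were spread less evenly. Klra4, the gene of the activating receptor Ly49D, was at 4.72 ± 2.35 CP10K in NK-like cells, 0.457 ± 0.743 in ILC-like cells and 0.00887 ± 0.0154 in T-like cells. Klra8, the gene of Ly49H, an activating receptor known for binding a protein of mouse cytomegalovirus, was at 1.14 ± 1.09, 0.110 ± 0.207 and 0.0057 ± 0.014 CP10K. Klra9, the gene of the inhibitory receptor Ly49I, was at 3.84 ± 3.84, 1.22 ± 1.55 and 0.148 ± 0.143 CP10K. Klra7, the gene of the inhibitory receptor Ly49G, was at 2.08 ± 2.03, 1.79 ± 2.51 and 0.212 ± 0.237 CP10K. Among the 4, the NK-like and ILC-like levels of Klra4 alone were apart by more than the larger SD of the 2 classes. Klrg1, an inhibitory receptor for cadherins, was at 1.13 ± 1.27 CP10K in NK-like, 0.0189 ± 0.0462 in ILC-like and 0.0842 ± 0.109 in T-like cells. In hepatocyte-like cells, which should lack these genes, the highest of the 10 means was 0.130 CP10K, for Klrd1, with a UMI in 1.35% of 2962 cells. The highest value of a single mouse there was 0.429 CP10K, for Klrb1c in wild-type mouse 3, from 7 UMIs in 100 cells. In the other mice Klrb1c was at most 0.0463 CP10K in these cells. The share of T-like cells with a UMI was 23.5% for Klrd1, and those of Klra4 and Klra8 were 0.183% and 0.0915%.

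**Figure D1:**
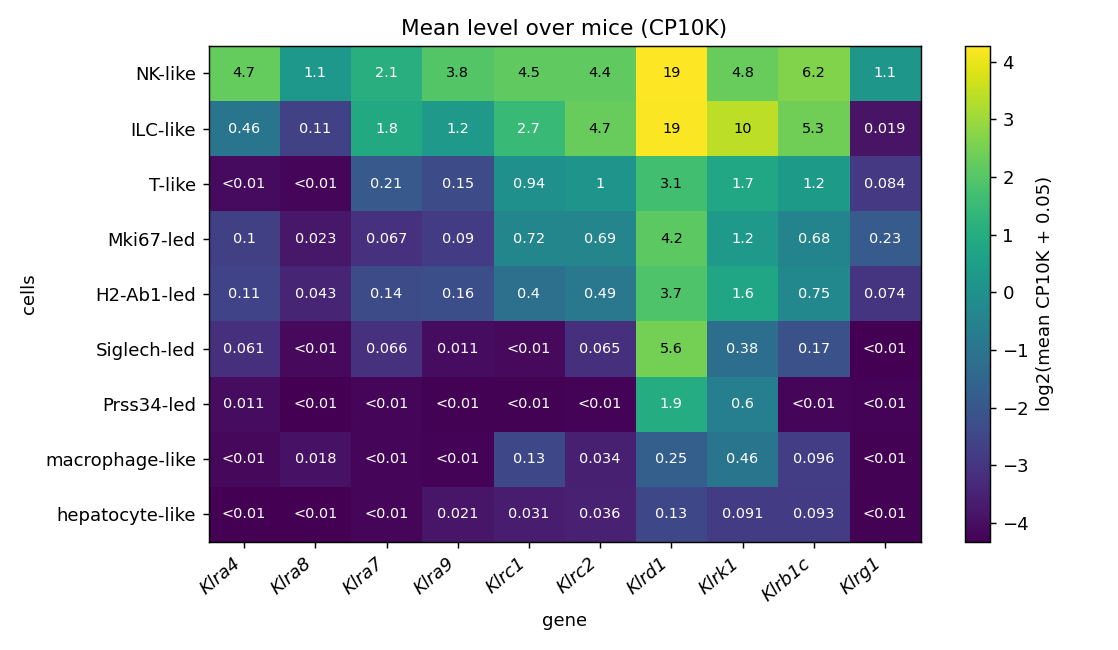
Mean expression of the 10 receptor genes in each cell class, in CP10K averaged over mice. Klrd1 was the highest gene in NK-like (19.3), ILC-like (18.8) and T-like (3.12) cells, and Klra4 fell from 4.72 in NK-like to 0.457 in ILC-like cells.

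Single cells differed in which receptors were captured. Of the 125 NK-like cells, 64 had no UMI of the 4 Ly49 genes, 37 had UMIs of 1 gene, 17 of 2 and 7 of 3 or more. At least 1 of these 4 genes was thus captured in 48.8% of NK-like cells, against 12.2% of ILC-like and 2.20% of T-like cells. Other Klra genes were not counted here, such as Klra1, with a UMI in 13.6% of NK-like, 2.43% of ILC-like and 2.65% of T-like cells. In the NK-like cells of single mice the share ran from 33.3% to 69.2%. A Klra7 UMI was seen in 14 of the 36 NK-like cells with a Klra4 UMI and in 22 of all 125. For Klrc1 and Klra4 the pattern was the opposite, with a Klrc1 UMI in 3 of those 36 cells and in 29 of the 125. A Klrc2 UMI was seen in 21 of the 29 NK-like cells with a Klrc1 UMI and in 47 of the 125, and in 54 of the 99 T-like cells with a Klrc1 UMI and in 128 of all 1093. These counts pool the cells of 6 mice, depend on how deeply each cell was read, and include genes that share transcript ends.

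Within the T-like class, cells with a UMI of Cd8a or Cd8b1 differed from the other cells in the shares of some receptors. These shares pool the mice of both genotypes and were not tested. A Klrb1c UMI was found in 1.6% of 125 cells with a Cd8 UMI and in 17.8% of 968 without. Klrc2 gave the same 1.6% against 13.0%, and Klrc1 gave 1.6% against 10.0%. Klrd1 was found in 29.6% and 22.7% and Klrk1 in 14.4% and 16.0%. Klra9 went the other way, at 4% against 0.723%. The rest were Klra7 at 1.6% and 1.14%, Klrg1 at 2.4% and 1.45%, Klra4 at 0 and 0.207%, and Klra8 at 0 and 0.103%. The mouse means of Klrc1 overlapped, at 0 to 0.868 CP10K with and 0.397 to 2.5 CP10K without a Cd8 UMI. Those of Klrb1c and Klrc2 did not. The median depth was 1566 UMIs per cell with and 1304 without a Cd8 UMI. The lower shares of Klrb1c, Klrc1 and Klrc2 were thus in the deeper cells.

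Before the receptors are compared between genotypes, the makeup of the lymphocytes has to be given. NK-like and ILC-like cells made up 6.06% (12 of 198), 11% (16 of 146) and 9.60% (19 of 198) of the NK-like, ILC-like and T-like cells of the wild-type mice. In the SIRT7-/- mice the shares were 40.2% (216 of 538), 27.3% (98 of 359) and 42.3% (11 of 26). These shares leave out the groups led by Mki67 and by H2-Ab1, with 176 and 104 cells in SIRT7-/- mouse 2. The genotypes did not overlap, with 8.87 ± 2.53% (SD, n = 3) in wild-type and 36.6 ± 8.12% (n = 3) in SIRT7-/- mice, and an exact permutation test gave p = 0.1, the smallest possible. When cells were instead sorted by UMIs of Cd3 and NK genes, the NK shares were 4.46%, 10.5% and 7.93% in wild-type and 29.0%, 14.5% and 38.7% in SIRT7-/- mice, again without overlap (exact permutation p = 0.1). Any Cd3 UMI made a cell T in this sort, so that depth bears on it. The median was 2306 UMIs per T-like cell in wild-type and 1132.5 in SIRT7-/- mice, and 1967 and 1130 per innate cell. Wild-type mouse 3, at 1015, and SIRT7-/- mouse 3, at 3152 UMIs per T-like cell, went the other way. The part of depth in these shares was not tested. Within the innate cells the NK-like share was 56.1 ± 10.6% in wild-type and 35.2 ± 12.4% in SIRT7-/- mice (n = 3 each, exact permutation p = 0.1). Cells were recovered by dissociation and mixing, so that the shares describe the libraries and not the number of cells in a liver.

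**Figure D2:**
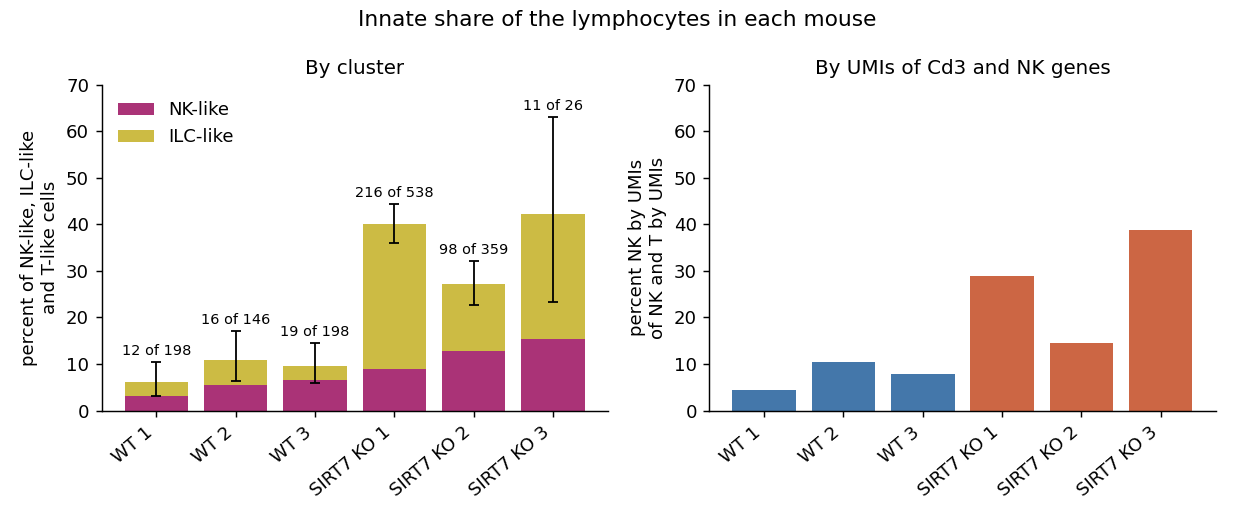
Share of innate cells among the NK-like, ILC-like and T-like cells of each mouse, in percent, by cluster (left, NK-like and ILC-like stacked, with exact 95% binomial intervals). The right side gives the share of NK among NK and T cells, both set by UMIs of Cd3 and NK genes. The 3 SIRT7-/- mice sit between 27.3% and 42.3% on the left, above the wild-type mice at 6.06% to 11%.

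When NK-like, ILC-like and T-like cells were taken as 1 population, the lowest SIRT7-/- mouse was above the highest wild-type mouse for Klrd1, Klrk1 and Klra4. Klrd1 was at 4.68, 4.85 and 4.04 CP10K in wild-type and at 7.86, 8.26 and 7.48 CP10K in SIRT7-/- mice. Klrk1 was at 2.35, 2.78 and 1.85 CP10K in wild-type and at 3.74, 3.23 and 6.39 CP10K in SIRT7-/- mice. Klra4 was at 0.0510, 0.185 and 0.579 CP10K in wild-type and at 0.679, 0.742 and 0.847 CP10K in SIRT7-/- mice. For these 3 genes the genotypes did not overlap, whereas the other 7 genes did.

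Over this population the log2 fold change of SIRT7-/- over wild-type was 0.79 (SE 0.21) for Klrd1, 0.88 (SE 0.29) for Klrk1 and 1.70 (SE 0.53) for Klra4. The limma test, fitted on log2(CP10K + 0.05) over all genes, gave adjusted p of 0.302 for Klrd1, 0.594 for Klrk1 and 0.544 for Klra4, so that none of the 10 genes passed. With 1 mouse left out, the value of Klra4 ran from 1.06, without wild-type mouse 1, to 2.38, without wild-type mouse 3. The test called 13 of 9782 genes, or 0.133%, and 10.5% of genes had genotypes that did not overlap, among them 4.52% of all genes with higher values in SIRT7-/- mice. An unadjusted p under 0.05 was reached by 3 of the 10 receptor genes and by 5.46% of all genes. The higher innate share given above moves with these levels, and fewer or more cells of a class cannot be told apart from a change per cell in this population. The levels within each class follow.

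Within NK-like and ILC-like cells joined as innate cells, which rest on 12, 16 and 19 wild-type cells and 216, 98 and 11 SIRT7-/- cells, Klra9 was lower in SIRT7-/- mice. Klra9 was at 3.12, 5.33 and 1.61 CP10K in wild-type and at 0.738, 1.49 and 0.216 CP10K in SIRT7-/- mice. The highest SIRT7-/- mouse was thus just under the lowest wild-type mouse. The wild-type levels came from 9, 15 and 4 UMIs in 5, 3 and 4 cells, and the SIRT7-/- levels from 17, 17 and 1 UMIs in 13, 9 and 1 cells.

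The log2 fold change of Klra9 was -2.15 (SE 0.57, limma adjusted p = 0.0405), and the gene was the last of 38 called among 9383, or 0.405%, with 0.288% called lower. The expected share of innate cells with a Klra9 UMI, were each cell drawn down to 1000 UMIs, was 24.9%, 18.2% and 16.4% in wild-type and 3.64%, 5.95% and 2.16% in SIRT7-/- mice. The mean share was 19.8 ± 4.46% against 3.91 ± 1.91% (n = 3 each, exact permutation p = 0.1). In NK-like cells alone, Klra9 was at 2.25, 10.7 and 1.38 CP10K in wild-type and at 2.44, 2.46 and 0 CP10K in SIRT7-/- mice. In ILC-like cells it was at 3.99, 0 and 2.09 CP10K in wild-type and at 0.251, 0.633 and 0.339 CP10K in SIRT7-/- mice. The genotypes overlapped in each class. The NK-like cells, whose Klra9 level was the higher of the 2 classes, made up 56.1% of innate cells in wild-type and 35.2% in SIRT7-/- mice, as given above, and with both classes weighing the same the log2 fold change was -1.99 and did not pass the limma test (adjusted p = 0.150). In 11 of 16 other settings of the analysis Klra9 did not pass the limma test. Without wild-type mouse 1, wild-type mouse 2, SIRT7-/- mouse 1 or SIRT7-/- mouse 3 its adjusted p was 0.112, 0.669, 0.0673 and 0.963, and its log2 fold change was -2.12, -1.74, -2.25 and -1.47.

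Klrc1 was the other receptor gene whose genotypes did not overlap in innate cells. It was at 3.13, 5.75 and 5.13 CP10K in wild-type and at 2.41, 2.98 and 2.68 CP10K in SIRT7-/- mice. Its log2 fold change was -0.74 (SE 0.42) and it did not pass the limma test (adjusted p = 0.843). The share of cells with a Klrc1 UMI at 1000 UMIs was 32.8 ± 9.83% in wild-type and 19.3 ± 1.19% in SIRT7-/- mice (n = 3 each, exact permutation p = 0.1). In NK-like cells alone, Klrc1 was at 5.32, 5.91 and 7.50 CP10K in wild-type mice and at 1.22, 2.61 and 1.14 CP10K in SIRT7-/- mice, without overlap. In ILC-like cells it was at 0.937, 5.58 and 0 CP10K in wild-type and 2.76, 3.31 and 3.56 CP10K in SIRT7-/- mice, which overlapped. With 4 to 13 NK-like cells in 4 of the 6 mice, these values were not tested.

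The other 8 receptor genes overlapped between the genotypes in innate cells. Klrk1 had a log2 fold change of 0.48 (95% interval -0.15 to 1.12) and Klrd1 of -0.16 (-0.65 to 0.33). Klrc2 was at -0.23 (-0.98 to 0.53), Klrb1c at -0.0048 (-0.71 to 0.70), Klra4 at -0.0010 (-0.98 to 0.98) and Klra7 at -0.52 (-1.53 to 0.49). With classes set by UMIs, Klra7 turned to 1.58. Without wild-type mouse 3, Klrk1 was at 0.062. Klra8 and Klrg1, with 28 and 14 UMIs in all, had intervals of -2.73 to 2.41 and -4.40 to 0.93. The 10 receptor genes had a median log2 fold change of -0.19, against 0.15 for all 9383 genes tested, and 2 of the 10 had genotypes that did not overlap, both lower in SIRT7-/- mice, against 11.2% of all genes in either direction and 4.11% lower. An unadjusted p under 0.05 was reached by 1 of the 10, Klra9, and by 5.77% of all genes.

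**Figure D3:**
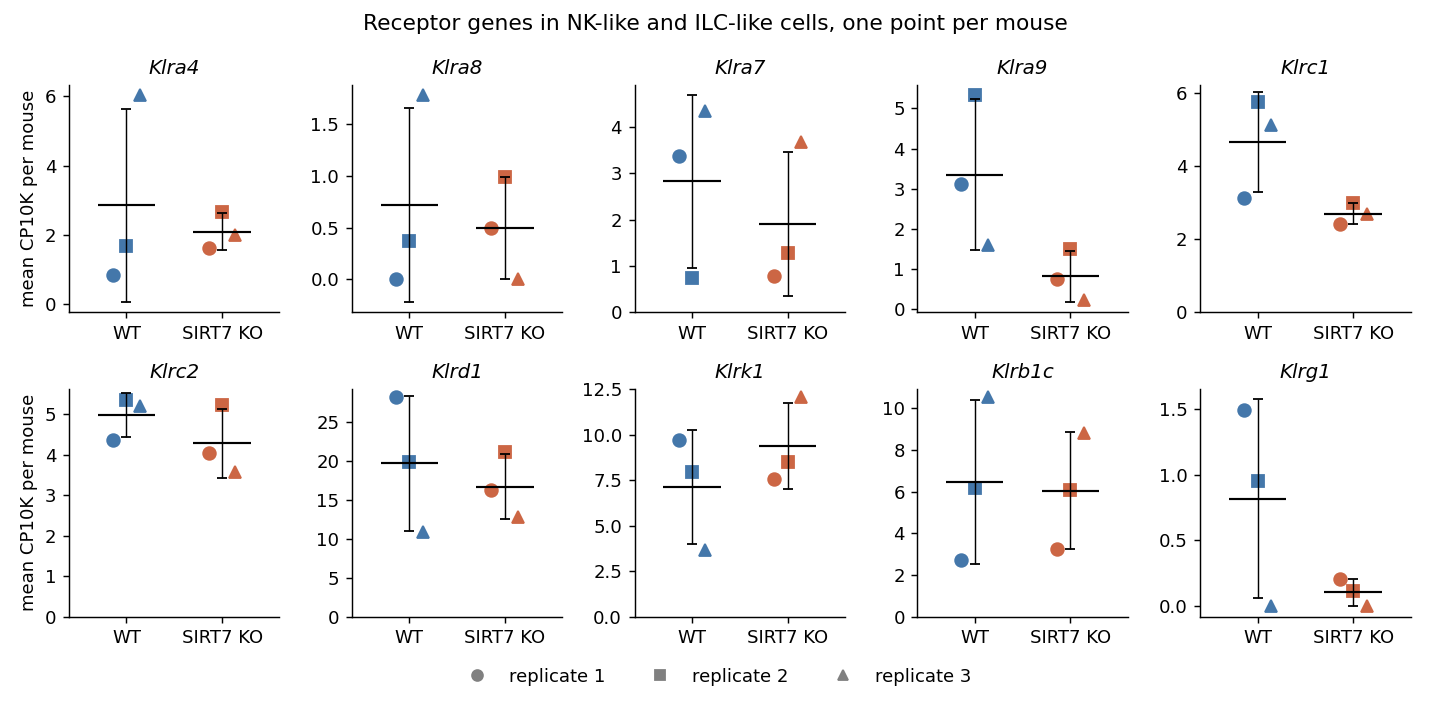
Mean CP10K of each receptor gene in the NK-like and ILC-like cells of each mouse (points, shapes give the replicate), with the mean and SD of each genotype (n = 3). Klra9 and Klrc1 show no overlap, with Klra9 at 1.61 to 5.33 in wild-type and 0.216 to 1.49 in SIRT7-/- mice.

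RNA from other cells moved with genotype in these innate cells. The summed level of 8 hepatocyte markers was 88.0 to 145.5 CP10K in wild-type and 20.9 to 74.0 CP10K in SIRT7-/- mice. All 8 of these markers were detected in each of the 6 mice. SIRT7-/- mouse 1 stood apart in 3 markers of S100a8/S100a9 cells, at 4.21 CP10K against at most 0.404 in the other mice, and in 5 macrophage markers, at 3.30 against at most 1.3 CP10K. Of the 38 called genes, Xcl1, an NK cell chemokine, was higher in SIRT7-/- mice by 1.3 on the log2 scale. Car3, Ass1 and Bhmt, all called lower, are hepatocyte markers. Also called lower were Mup9 (log2 fold change -2.5) and Sult2a5 (-3.1), which were leading genes of a hepatocyte-like cluster. The genes named are examples, and the hepatocyte genes among those called lower were not counted. The 0.288% of genes called lower, given above, thus includes hepatocyte genes. The part of such RNA in the receptor values was not tested.

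In T-like cells, Klrb1c and Klrc2 were the receptor genes whose 6 mice did not overlap. Klrb1c was at 1.66, 1.3 and 2.80 CP10K in wild-type and at 0.454, 0.668 and 0.460 CP10K in SIRT7-/- mice. The highest SIRT7-/- mouse was below the lowest wild-type mouse. The UMIs behind these levels were 85, 43 and 53 in wild-type and 18, 25 and 2 in SIRT7-/- mice, and the last mouse had 15 T-like cells and did not enter the fit. A Klrb1c UMI was found in 30.1%, 26.2% and 24.6% of wild-type T-like cells and in 5.28%, 8.05% and 13.3% of SIRT7-/- ones. At 1000 UMIs per cell the shares were 17.3 ± 8.23% and 5.89 ± 1.23% (n = 3 each, exact permutation p = 0.1).

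Over 3 wild-type and 2 SIRT7-/- mice, the log2 fold change of Klrb1c was -1.64 (SE 0.36, limma adjusted p = 0.116). Klrb1c did not pass the limma test, and with SIRT7-/- mouse 3 included its log2 fold change was -1.72 (adjusted p = 0.265). SIRT7-/- mouse 1 again stood apart in macrophage markers (3.62 CP10K against at most 0.743 in the other mice) and S100a8/S100a9 markers (4.02 against at most 0.214). Without this mouse, 1 SIRT7-/- mouse was left in the fit, and the log2 fold change of Klrb1c was -1.38. In the fit of 3 wild-type and 2 SIRT7-/- mice, Tcrg-C2, a T cell receptor gamma gene and 1 of the leading genes of the T-like class, was called lower in SIRT7-/- mice, with a log2 fold change of -1.76 (SE 0.33, limma adjusted p = 0.0429). It was the 1 gene of 18 T markers that was called, and its part in the values of Klrb1c, Klrc1 and Klrc2 was not tested.

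Klrc2 followed the same order. It was at 1.54, 1.14 and 1.54 CP10K in wild-type and at 0.606, 0.786 and 0.599 CP10K in SIRT7-/- mice, with no overlap among the 6 mice. Its log2 fold change was -0.96 (SE 0.33, limma adjusted p = 0.613), and the exact permutation test over the 3 and 3 mouse means gave p = 0.1. At 1000 UMIs per cell, 11 ± 1.91% of wild-type and 5.64 ± 1.66% of SIRT7-/- T-like cells had a Klrc2 UMI (n = 3 each, exact permutation p = 0.1).

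Klrc1 and Klrk1 had genotypes that did not overlap among the 5 mice of the fit, but the SIRT7-/- mouse with 15 T-like cells changed this. Klrc1 was at 1.45, 0.866 and 0.656 CP10K in wild-type and at 0.472, 0.321 and 1.84 CP10K in SIRT7-/- mice. Its log2 fold change was -1.17 (SE 0.39, limma adjusted p = 0.600) and -0.47 with SIRT7-/- mouse 3 included. Klrk1 was at 1.87, 2.14 and 1.66 CP10K in wild-type and at 1.18, 1.25 and 2.21 CP10K in SIRT7-/- mice, with a log2 fold change of -0.61 (SE 0.30, limma adjusted p = 0.969) and of -0.34 with that mouse.

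Klrd1, the partner of both Klrc genes, had a log2 fold change of -0.19 in T-like cells, with a 95% interval of -0.79 to 0.41. Its levels of 3.16, 3.0 and 3.32 CP10K in wild-type and 2.21, 3.43 and 3.60 CP10K in SIRT7-/- mice overlapped. Klra7, Klra9 and Klrg1 were at 0 in at least 1 wild-type mouse and were at most 0.635 CP10K in any mouse. Klra4 and Klra8 were at 0 in each wild-type mouse, with 5 and 1 UMIs in the SIRT7-/- mice, and were not tested. For Klra4, 0 of 186 cells of wild-type mouse 1 had a UMI, with an upper bound of 1.96% of cells.

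Of the 8 receptor genes tested in T-like cells, 0 passed limma, against 18 of 9741 genes, or 0.185%. An unadjusted p under 0.05 was reached by 3 of the 8, namely Klrb1c, Klrc1 and Klrc2, against 5.14% of all genes. Among the 5 mice, 4 of the 8 had genotypes that did not overlap, all lower in SIRT7-/- mice, against 19.8% of genes in either direction and 11.8% lower. The summed hepatocyte markers were 82.1 to 122.6 CP10K in wild-type and 26.0 to 83.6 CP10K in SIRT7-/- T-like cells, and their part in these values was not tested.

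**Figure D4:**
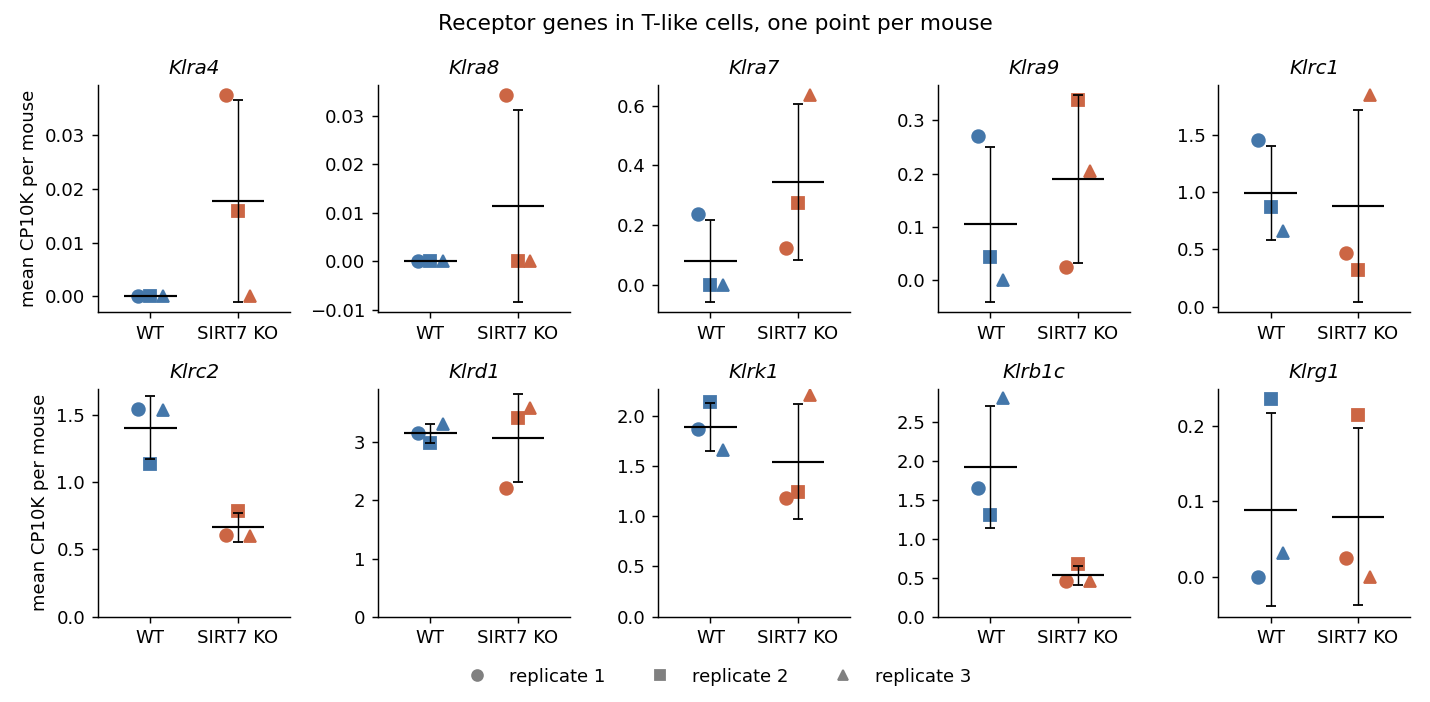
Mean CP10K of each receptor gene in the T-like cells of each mouse (points, shapes give the replicate), with the mean and SD of each genotype (n = 3). Klrb1c and Klrc2 show no overlap, with Klrb1c at 1.3 to 2.80 in wild-type and 0.454 to 0.668 in SIRT7-/- mice, and SIRT7-/- mouse 3 rests on 15 cells.

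Whether genotype moved a receptor gene differently in innate and in T-like cells was tested as the difference between the 2 log2 fold changes over all 6 mice, so that the 15 T-like cells of SIRT7-/- mouse 3 entered here. For Klrb1c this difference was 1.71 (SE 0.73, limma adjusted p = 0.810), with log2 fold changes of -1.72 in T-like cells over these mice and -0.0048 in innate cells. For Klra9 it was -2.92 (SE 1.05, adjusted p = 0.809) and for Klra7 -2.44 (SE 0.87, adjusted p = 0.809), and with classes set by UMIs the value of Klra7 was -0.34. None of the 8 receptor genes tested passed limma, nor did any of 8617 genes, or 0%. An unadjusted p under 0.05 was reached by 2 of the 8, Klra7 and Klra9, and by 6.12% of genes. The mouse differences of the genotypes did not overlap in 4 of the 8 receptor genes and in 12.5% of genes.

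**Figure D5:**
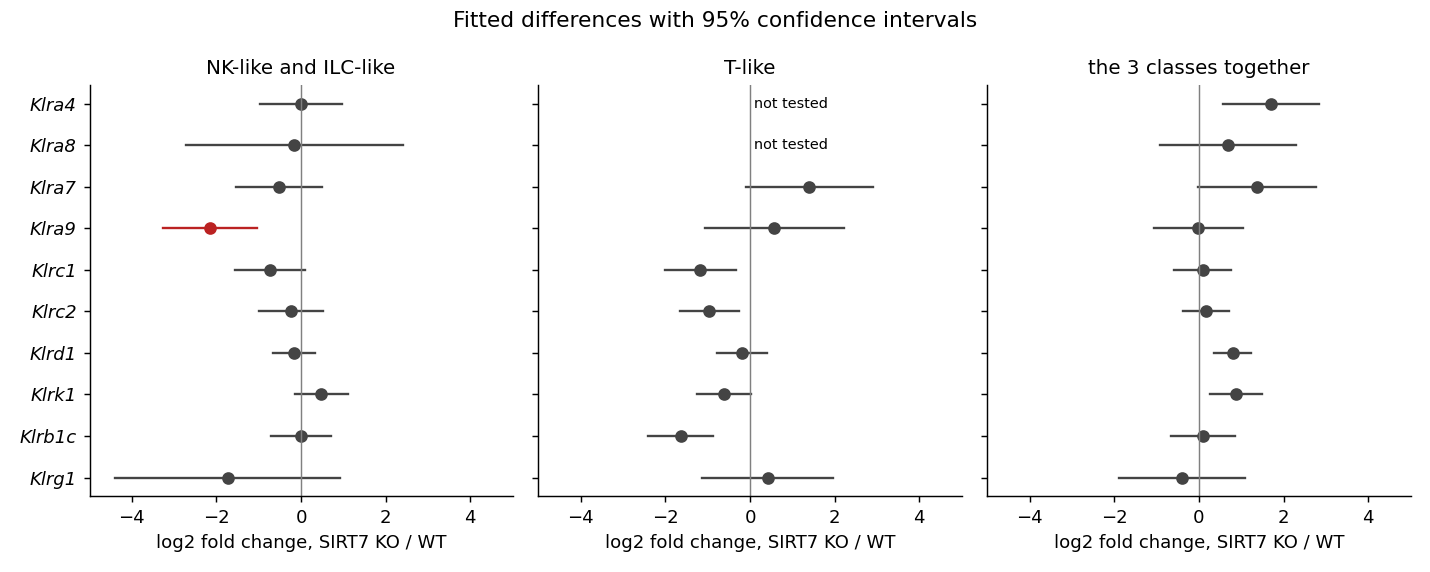
Log2 fold changes of SIRT7-/- over wild-type for the 10 receptor genes with 95% confidence intervals, in innate cells, T-like cells and the 3 classes together. Klra9 in innate cells (-2.15, drawn in red) is the gene past the adjusted threshold, and Klrd1 (0.79) and Klrk1 (0.88) lie to the right over the 3 classes.

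The genes that serve the same receptors were examined by lists. Of the 15 other Klr genes, 10 were tested in innate cells and 5 in T-like cells, and 0 passed limma in either. Klre1, whose product forms heterodimers with those of Klri1 and Klri2, was the highest, at 6.04, 7.02 and 8.45 CP10K in wild-type and 5.90, 9.11 and 9.69 CP10K in SIRT7-/- innate cells. Klrb1f was at 2.94 and 3.49 CP10K and Klri2 at 1.82 and 2.72 CP10K as means of the wild-type and SIRT7-/- mice. These genes overlapped between the genotypes.

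Of 27 adaptor and signalling genes, 0 passed limma in innate cells or T-like cells. Tyrobp, the DAP12 adaptor gene, was at 21.0 and 19.5 CP10K as means of wild-type and SIRT7-/- innate cells and at 0.223 and 0.650 CP10K in T-like cells. Fcer1g, the adaptor of Fc receptors, was at 21.5 and 22.7 CP10K in innate cells. Over the 3 classes as 1 population, 2 of the 27 genes were called higher, Tyrobp with a log2 fold change of 1.87 (SE 0.30, limma adjusted p = 0.0168) and Fcer1g with 2.01 (SE 0.35, limma adjusted p = 0.0468), against 0.133% of all genes. The innate share, which was higher in each SIRT7-/- mouse, moves with these levels, and its part was not tested. Hcst, the adaptor of NKG2D, was at 6.43 and 6.31 CP10K in innate cells and at 8.33 and 8.17 CP10K in T-like cells. Rac2, a small GTPase of blood cells, was at 9.04 and 11.3 CP10K in innate cells.

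Of 24 other NK receptor genes, 20 were tested in innate cells and 16 in T-like cells, and 0 passed limma in either. Ncr1, an activating NK receptor, was at 15.4 and 18.7 CP10K in innate cells. Il2rb, a chain of the receptors for interleukins that sustain NK cells, was at 9.54 and 10.5 CP10K there and at 7.54 and 5.17 CP10K in T-like cells. Cd160 was at 2.75 and 3.74 CP10K in innate cells. Of 13 ligand genes, 7 were tested in innate cells and 8 in T-like cells, and 0 passed limma. H2-K1, an MHC class I gene, was at 31.5 and 35.8 CP10K, B2m, the light chain of MHC class I, at 19.5 and 23.9 CP10K and H2-D1 at 16.6 and 16.6 CP10K in innate cells of wild-type and SIRT7-/- mice.

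The genes whose levels over the 80 means of a cell group and mouse were most like the sum of the receptor genes were Cd7 (Pearson r = 0.886), Ccl5 (0.883), Nkg7 (0.843), an unnamed gene model (0.839) and Padi2 (0.827), among 6862 genes compared outside the Klr family. The 80 points share 6 libraries, and the values describe likeness across cell groups.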

How the data were processed

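The 10 genes and the lists were chosen with earlier results of these data known. In the deposited table, the authors' values are the natural log of counts per 10000 plus 1, ln(CP10K + 1). According to the study's methods and the submitters' processing notes, reads were aligned with Cell Ranger 6.0.0 (genome build mm10), cells with under 500 genes or too high a mitochondrial share were removed, as were rarely detected genes, and each cell was scaled to 10000 counts. UMIs were recovered by dividing each value by its cell's smallest step, which left 12961041 nonzero values at whole UMIs with a tolerance of 0.02. Barcodes gave each cell its mouse.

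Scanpy 1.11.5 and leidenalg 0.10.2 clustered the cells, with no Klr gene used (1000 variable genes, resolution 0.35), and 148 cells (1.27%) were marked as doublets and kept. The innate cluster was split again and its pieces were joined as NK-like or ILC-like by their leading marker genes. Means per mouse and class plus 0.05 CP10K were taken as log2 and fitted with limma 3.58.1 (trend, robust) in R 4.3.3, for genes whose mean reached 0.05 CP10K, with Benjamini-Hochberg adjustment and a threshold of 0.05. A mouse entered the T-like fit with at least 20 cells. The minimum of 20 cells left no wild-type mouse for NK-like or ILC-like cells alone, so that these were not fitted, and the 2 classes were fitted together with at least 10 cells per mouse, a choice made after seeing the cell numbers. Shares given at 1000 UMIs are the expected shares after drawing each cell down to 1000 UMIs, leaving out shallower cells, and the other shares of cells with a UMI are as counted. Single values were compared by exact two-sided permutation tests over mice. On simulated data for the T-like cells, limma recovered 189 of 200 genes changed 4-fold among 9654, with 7 false calls. The changed genes were picked at levels above those of the Ly49 genes and Klrg1 in T-like cells. The simulated mice varied around a common profile, without differences in RNA from other cells, and the innate fit was not simulated. The recovery therefore does not apply to those genes or to innate cells. The genes named were the 10 receptor genes, list genes past the threshold, and otherwise the 3 highest genes of each list. The alternatives tried were other pseudocounts, filters and scalings, classes set by UMIs, no doublets, the replicate number as a block and each mouse left out. The labels call the libraries separate mice. The replicate numbers were not found to pair the mice.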

Additional observations from a re-analysis of the deposited data

Results flagged for a closer look

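In 2 of the clusters outside lymphocytes and hepatocytes, each with 5 or more mice, the lowest mouse had more of a receptor gene than the highest mouse in hepatocyte-like cells, which had 0.309 CP10K of Klrd1 and 0.254 CP10K of Klrk1. In a cluster of 1294 cells scored highest for the basophil markers, Klrd1 was at 1.93 CP10K as the mean over 6 mice (0.913 to 2.60) and Klrk1 at 0.599 CP10K (0.482 to 0.945). Beside the basophil markers Prss34 and Mcpt8, the leading genes of this cluster included Cd209a, a dendritic marker, and F13a1, Xcr1 and Ctsg. The cluster is therefore not taken as basophils alone. In a cluster of 197 cells scored highest for the dendritic markers, Klrd1 was at 5.56 CP10K as the mean over 5 mice (4.59 to 7.11), with a UMI in 45.2% of the cells, and Klrk1, at 0 in 1 or more mice, was not above. Of the groups of the lymphocyte cluster that no comparison used, the cells led by Mki67 had Klrd1 at 4.25 CP10K (4 mice with at least 5 cells, 1.11 to 8.41). Those led by H2-Ab1, not taken as lymphocytes alone, had it at 3.71 CP10K (3 such mice, 2.18 to 4.48). The cause was not tested.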

How the results depend on the processing

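In innate cells, 38 genes were called, 18 with a filter at 0.2 CP10K, 23 with NK-like and ILC-like cells weighing the same, and 0 to 54 with 1 mouse left out. Klra9 stayed lower in all 16 alternatives (log2 fold change -2.73 to -1.47, adjusted p 0.00261 to 0.963) and passed in 5. In T-like cells, 18 genes were called, 9 with a pseudocount of 0.01, 9 with a filter at 0.2 CP10K, 11 with quantile normalization, 4 with at least 10 cells and 12 to 143 with 1 mouse left out. Klrb1c stayed lower in all 15 alternatives (-1.89 to -1.26, adjusted p 0.00432 to 0.35) and passed in 3, of which no filter gave adjusted p = 0.0287. With the 3 classes together, 13 genes were called, 6 with a pseudocount of 0.01, 26 with 0.2, 23 with no filter and 9 to 102 with 1 mouse left out. For the difference between innate and T-like cells, 0 were called and 1 with a pseudocount of 0.2. Over the receptor genes, the median difference in the share of T-like cells with a UMI was -0.491 percentage points and -2.16 when cells were not thinned. With 1 mouse left out it was -0.785 to 0.0381, that of NK-like cells (-6.50) was -9.15 to -0.992, and that of ILC-like cells (-1.62) was -4.30 to 0.685. The causes were not tested.

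The replicate numbers did not pair the mice, with correlations of same-numbered deviations from -0.0224 to 0.0769 and none above 0.1, and not every mouse correlated best with its own number. The replicate block called 197 genes in T-like cells, Klrb1c (-1.33, adjusted p = 0.00432) and Klrc1 (-1.42, adjusted p = 0.00797) among them, 45 in innate cells, 5 with the classes together and 0 for the difference. It put Klra9 in T-like cells at -0.022. SIRT7-/- mouse 3 did not enter the T-like fit, so that wild-type mouse 3 had no partner in its block. The block thus left little to estimate the spread between mice in T-like cells, and the calls there rest on that.

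The other changes of sign were in values that did not pass. In innate cells, Klra4 (-0.0010) was at 0.0073 with a pseudocount of 0.01, 0.13 with quantile normalization, 0.026 with classes by UMIs, 0.0012 without doublets and 0.54 with classes weighing the same. With classes by UMIs, Klra7 was at 1.58 and Klrb1c at 0.14, and with quantile normalization Klra8 was at 0.034 and Klrb1c at 0.094. Klrd1 was at 0.035 with summed UMIs. In T-like cells, Klrd1 was at 0.21 with classes by UMIs and Klrg1 at -0.080 with at least 10 cells. With the classes together, Klra9 was at 0.086 with summed UMIs and 0.080 with quantile normalization, Klrb1c at -0.018 and Klrc1 at -0.0073 with summed UMIs, and Klrb1c at -0.10, Klrc1 at -0.071, Klrc2 at -0.081 and Klrg1 at 0.17 with classes by UMIs. For the difference, Klrd1 was at 0.17 with summed UMIs.

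With 1 mouse left out, the ranges were -0.62 to 0.76 for Klra4, -1.54 to 1.15 for Klra8, -0.53 to 0.45 for Klrb1c, -0.53 to 0.15 for Klrd1 and 0.062 to 0.76 for Klrk1 in innate cells. In T-like cells they were -0.60 to 1.76 for Klra9, -0.50 to 0.12 for Klrd1 and -0.49 to 1.33 for Klrg1. With the classes together they were 1.06 to 2.38 for Klra4, 0.59 to 1.08 for Klrk1, -0.51 to 0.35 for Klra9, -0.28 to 0.42 for Klrb1c, -0.21 to 0.31 for Klrc1 and -0.91 to 0.23 for Klrg1, and for the difference -0.84 to 0.43 for Klrc1 and -0.50 to 0.22 for Klrd1. Where this left 1 SIRT7-/- mouse in T-like cells, that mouse was taken to vary like the others. The planned fits of NK-like cells and of ILC-like cells alone were not run because no wild-type mouse had 20 cells of either. The few UMIs of the Ly49 genes and Klrg1, and the few innate cells of 4 of the 6 mice, limit these values.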
